A study of Mus musculus with 21 samples.

Results

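Immunoglobulin genes were followed in mammary tumours of MMTV-PyMT mice that were sedentary or physically active, sampled at week 12 and at week 18. The genes were taken by symbol from the deposited tumour tables: every heavy, kappa or lambda chain constant gene or variable (V) segment, with the unrelated helicase gene Ighmbp2 left out. This gave 107 immunoglobulin genes of 19241 genes listed. They were 39 heavy V segments, 54 kappa V segments, 3 lambda V segments, 7 heavy constant genes, 1 kappa constant gene and 3 lambda constant genes.

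All mice carried the same transgene, in which the mouse mammary tumour virus promoter drives the polyoma middle T oncogene in mammary epithelium. The 4 groups were sedentary week 12, active week 12, sedentary week 18 and active week 18, with 3 tumours in each and 12 tumours in all. The labels call the tumours of a group biological replicates. Strain background, age other than the week and the form of activity are not given in the sources used here. Tumours are named as in the labels by S for sedentary or P for physically active, then the week and the replicate number, so that P12-3 is active replicate 3 of week 12. RNA came from whole tumour tissue, so every B cell, plasma cell, stromal cell and tumour cell in the piece contributed to 1 library. Libraries held 20838963 to 28973775 reads. Values are normalized counts, which are gene read counts divided by 1 factor per tumour, and 1 read was worth 0.874 to 1.2 normalized counts.

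An antibody is built from paired heavy and light chains. Each B cell joins a V segment to shorter segments at its heavy chain locus and at its kappa or lambda light chain locus. Its daughter cells keep that choice. The V segments read in a tissue thus depend on the contributing B cell clones and on the RNA each holds. They do not give a number of clones. A naive B cell makes IgM and IgD together from Ighm and Ighd, an activated B cell can switch to Ighg, Ighe or Igha, and a plasma cell secretes large amounts of antibody and carries far more immunoglobulin RNA per cell than a resting B cell. In bulk tumour RNA, fewer cells of a type and less RNA per cell cannot be told apart.

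The members lie at the 3 immunoglobulin loci of the mouse genome (GRCm38). The 46 heavy chain genes spanned chromosome 12 from 113254830 to 115953005. The 55 kappa genes spanned chromosome 6 from 67555497 to 70726966, and the 6 lambda genes spanned chromosome 16 from 19061618 to 19260859.

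Germline sequences are shown for some of the V segments that led the V reads of their chain in a tumour. Others that led with as large or larger a share are not shown. Each line holds the last 150 bases of the spliced segment, which are coding sequence and end at the joining side of the V segment, taken from the GENCODE transcripts and read 5′ to 3′. Capitals mark bases that differ from the most similar other V segment of the same chain.

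Igkv14-111: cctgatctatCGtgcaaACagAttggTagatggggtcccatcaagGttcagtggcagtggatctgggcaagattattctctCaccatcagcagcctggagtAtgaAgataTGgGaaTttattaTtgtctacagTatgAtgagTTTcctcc

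Igkv8-16: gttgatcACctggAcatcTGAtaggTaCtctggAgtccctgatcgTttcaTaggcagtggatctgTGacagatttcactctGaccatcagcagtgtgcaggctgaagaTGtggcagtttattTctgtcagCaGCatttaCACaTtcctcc

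Igkv17-127: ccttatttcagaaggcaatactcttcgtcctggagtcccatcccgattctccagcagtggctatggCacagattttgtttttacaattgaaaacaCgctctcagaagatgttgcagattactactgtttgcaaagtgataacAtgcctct

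Igkv4-68: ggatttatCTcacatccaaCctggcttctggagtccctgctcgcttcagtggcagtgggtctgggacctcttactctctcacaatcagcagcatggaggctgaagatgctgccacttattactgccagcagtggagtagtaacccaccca

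Ighv1-64: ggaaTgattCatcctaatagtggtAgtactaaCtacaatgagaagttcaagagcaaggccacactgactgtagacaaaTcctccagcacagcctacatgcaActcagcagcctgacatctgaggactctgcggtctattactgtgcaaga

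Igkv14-111 (chr6:68256389-68256869, plus strand) differed from Igkv14-126 at 20 bases, and Igkv8-16 (chr6:70386672-70387252, minus strand) differed from Igkv8-19 at 24 bases. Igkv17-127 (chr6:67861153-67861659, plus strand) differed from Igkv17-121 at only 3 bases, as did Igkv4-68 (chr6:69304834-69305405, minus strand) from Igkv4-59. Ighv1-64 (chr12:115507545-115508031, minus strand) differed at 6 bases from Ighv1-62-3, a segment that the tables do not list. Igkv14-111 and Igkv8-16 are therefore easier to tell from their relatives than the others shown. Over this stretch the 96 listed V segments had a median identity of 94.7% to their nearest relative, 45 of them were at least 95% identical to another segment, and 2 were 100% identical to another. Reads of such segments could be split or shared by the counting, so single segments with close relatives are uncertain.

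A single tumour, P12-3, carried most of the immunoglobulin RNA. The summed normalized count of all 107 genes was 21771 in P12-3. It was 672, 922 and 614 in the sedentary week 12 tumours and 685 and 420 in the other active week 12 tumours. At week 18 it was 197, 986 and 575 in sedentary tumours and 106, 1085 and 658 in active tumours. P12-3 was 20.1 times the highest of the 11 other tumours and 33.1 times their median, and these 11 overlapped across all groups.

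The group means carried that single tumour. They were 736 ± 164 (SD, n = 3) in sedentary week 12, 7625 ± 12251 (SD, n = 3) in active week 12, 586 ± 394 (SD, n = 3) in sedentary week 18 and 616 ± 491 (SD, n = 3) in active week 18. Without P12-3 the active week 12 mean was 552.7 ± 187 (SD, n = 2). On the log2 scale the ratio of active to sedentary means at week 12 was -0.41 without P12-3, so its direction rested on that tumour.

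**Figure D1:**
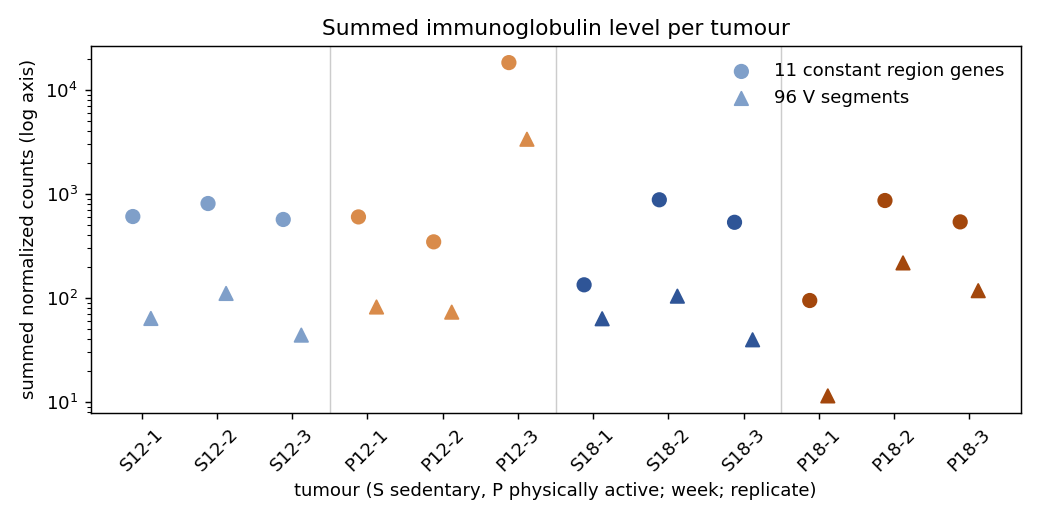
Summed normalized counts of the 11 constant region genes (circles) and the 96 V segments (triangles) in each of the 12 tumours, on a log axis, with tumours in order of group and colour marking the group. P12-3 lies at 18402 for constant genes and 3369 for V segments, and the 11 other tumours lie at 94.7 to 881 and at 11.4 to 218, with overlapping groups.

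The list of genes itself depended on P12-3. A gene is listed only where at least 1 of the 12 tumours held 10 or more reads. Of the 107 members, 83 (77.6%) had fewer than 10 reads in each of the 11 other tumours, against 585 of all 19241 listed genes (3.04%). Those 83 are in the tables through P12-3 and had to be high there. Of all members, 101 had their highest value in P12-3, against 26.3% of all listed genes. The exceptions were the constant gene Igha and the V segments Igkv14-111, Igkv8-16, Igkv4-55, Igkv4-68 and Ighv5-16, named after their values were seen. The reference annotates 114 functional heavy V, 100 functional kappa V and 3 functional lambda V segments, so the listed ones are part of the germline set.

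Heavy chain constant genes come first. Ighm (chr12:113418558-113422730, minus strand), which encodes the IgM heavy chain, held the most reads of any member in every tumour. Its normalized counts were 479.9, 411.0 and 496.8 in sedentary week 12 tumours and 482.9, 218.4 and 9401 in active week 12 tumours. At week 18 they were 97.7, 472.6 and 378.7 in sedentary and 67.6, 675.8 and 273.7 in active tumours. Apart from P12-3 the groups overlapped at both weeks. In the limma fit across all genes Ighm differed between active and sedentary tumours by 1.11 (SE 1.42, adjusted p = 0.970) on the log2(value + 1) scale at week 12 and by -0.16 (SE 1.02, adjusted p = 0.978) at week 18, neither larger than the spread between replicates. The week 18 difference was 0.11 in edgeR, the opposite direction.

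Ighd (chr12:113406604-113416324, minus strand) encodes the IgD heavy chain and is transcribed together with Ighm in naive B cells. Its normalized counts were 34.8, 29.5 and 25.3 in sedentary and 27.3, 20.6 and 4889 in active week 12 tumours. They were 9.57, 1.01 and 3.97 in sedentary and 2.08, 4.37 and 4.46 in active week 18 tumours. All 6 week 12 tumours were above all 6 week 18 tumours.

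Igha (chr12:113254830-113260236, minus strand) encodes the IgA heavy chain, the antibody of mucosal surfaces and milk. Its normalized counts were 26.4, 255.0 and 17.8 in sedentary and 47.4, 72.1 and 68.0 in active week 12 tumours. They were 14.4, 283.3 and 119.0 in sedentary and 11.4, 32.3 and 128.4 in active week 18 tumours. High values were spread over S12-2, S18-2, P18-3 and S18-3, the groups overlapped, and P12-3 was within the range of the others. The limma difference at week 12 was 0.30 (SE 1.03, adjusted p = 0.983), and at week 18 it was -1.10 (SE 1.36, adjusted p = 0.866). At week 12 edgeR gave -0.67, the opposite direction.

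The IgG genes were low. Ighg2b had 219.7 normalized counts in P12-3 and at most 23.2 elsewhere, in S12-2. Ighg3 had 70.3 in P12-3 and at most 27.6 elsewhere, in P18-3. Their values in the 11 other tumours were mostly within a few reads of 0. Ighg1 read counts were 0, 0 and 1 in sedentary and 6, 4 and 21 in active week 12 tumours, so the groups did not overlap. Ighg2c read counts were 0, 0 and 0 in sedentary and 3, 2 and 54 in active week 12 tumours, then 1, 1 and 0 in sedentary and 1, 12 and 12 in active week 18 tumours. Most of these values lie at or under 3 reads, the limit that a count of 0 allows in a library.

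On a per-length scale, which allows genes to be compared, Ighm in P12-3 reached 4984 normalized counts per kilobase of exon, Igkc 4794 and Ighd 2573. Ighm per kilobase was 1.94 times Ighd in P12-3 and 10.3 to 470 times Ighd in the 11 other tumours. The 470 came from S18-2, which had 1 Ighd read. Ighm per kilobase was 1.04 times Igkc in P12-3 and 0.849 to 9.36 times Igkc in the others. The balance of Ighm and Ighd therefore differed in P12-3 as well as their level.

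Isotype shares were taken over heavy constant gene reads within each tumour and need no scaling between tumours. Ighm and Ighd together made up 97.0% in P12-3 and 61.2% to 95.1% in the others, with a median of 82.7%. The Ighd share was 33.2% in P12-3 and 0.132% to 7.69% in the others, the lowest on 1 read in S18-2. The Igha share moved the other way, at 0.462% in P12-3 and 3.24% to 36.9% in the others. The 4 IgG genes together held 2.54% in P12-3 and 0.394% to 9.34% in the others, highest in P18-3. These are shares of reads, which had no molecular identifiers, and error beyond read counting was not measured.

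**Figure D2:**
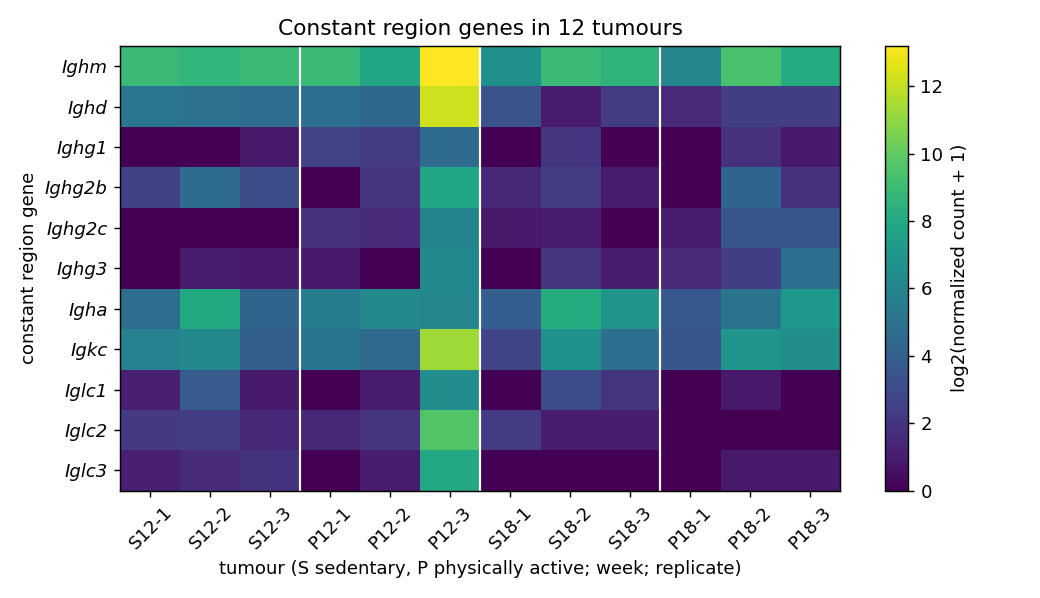
Heat map of the 11 constant region genes (rows) in the 12 tumours (columns), coloured by log2(normalized count + 1), with white lines between the groups. Ighm, Ighd and Igkc are brightest in P12-3, at 9401, 4889 and 2550 normalized counts, while Igha is highest in S18-2 at 283.3.

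**Figure D3:**
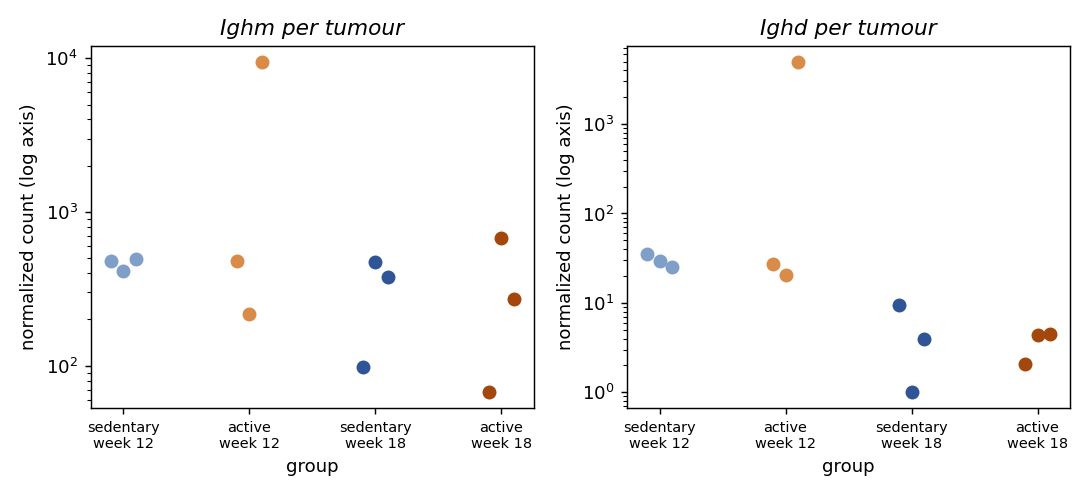
Normalized counts of Ighm (left) and Ighd (right) by group, on log axes with different ranges, with each point 1 tumour. Ighm overlaps between weeks, while Ighd is 20.6 to 4889 in the 6 week 12 tumours and 1.01 to 9.57 in the 6 week 18 tumours.

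Light chain constant genes followed. Igkc (chr6:70726435-70726966, plus strand), the only kappa constant gene, had normalized counts of 56.4, 72.7 and 15.0 in sedentary and 34.6, 21.6 and 2550 in active week 12 tumours. At week 18 they were 5.74, 105.2 and 27.8 in sedentary and 10.4, 117.1 and 90.9 in active tumours. The groups overlapped apart from P12-3, and the limma difference was 1.64 (SE 1.95, adjusted p = 0.970) at week 12 and 0.86 (SE 1.34, adjusted p = 0.889) at week 18. Iglc2 reached 780.6 normalized counts in P12-3, Iglc3 253.1 and Iglc1 87.0. In the other 11 tumours Iglc2 and Iglc3 were at most 4.22 and 2.81, and Iglc1 at most 12.6, in S12-2. Igkc made up 69.5% of light constant gene reads in P12-3 and 60.0% to 100% in the others.

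Breadth was counted as the V segments with more than 3 reads. P12-3 held 3021 V reads, 866 heavy, 1875 kappa and 280 lambda, and all 96 listed V segments were above 3 reads there. That count is fixed in part by the listing, because 80 of the 96 reached 10 reads in no other tumour. The 11 other tumours held 11 to 249 V reads and 0 to 16 segments above 3 reads. These were 2, 9 and 2 in sedentary and 7 and 7 in the other active week 12 tumours, and 3, 10 and 2 in sedentary and 0, 16 and 6 in active week 18 tumours. P12-3 stood apart, and the groups overlapped otherwise.

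Depth of V reads differed between tumours by more than their totals, so breadth was also computed after thinning. At 11 V reads the expected number of different segments was 10.2 in P12-3 and 4.35 to 8.33 in the others. At 249 V reads, the depth of P18-2, it was 80.1 in P12-3 and 36 in P18-2. The effective number of segments, the exponential of the Shannon index, was 34.8 for heavy and 43.8 for kappa V segments in P12-3. In the 11 others it was 1.89 to 8.23 for heavy and 1.91 to 14.3 for kappa. P12-3 was thus above every other tumour on each of these measures, with the listing in its favour.

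**Figure D4:**
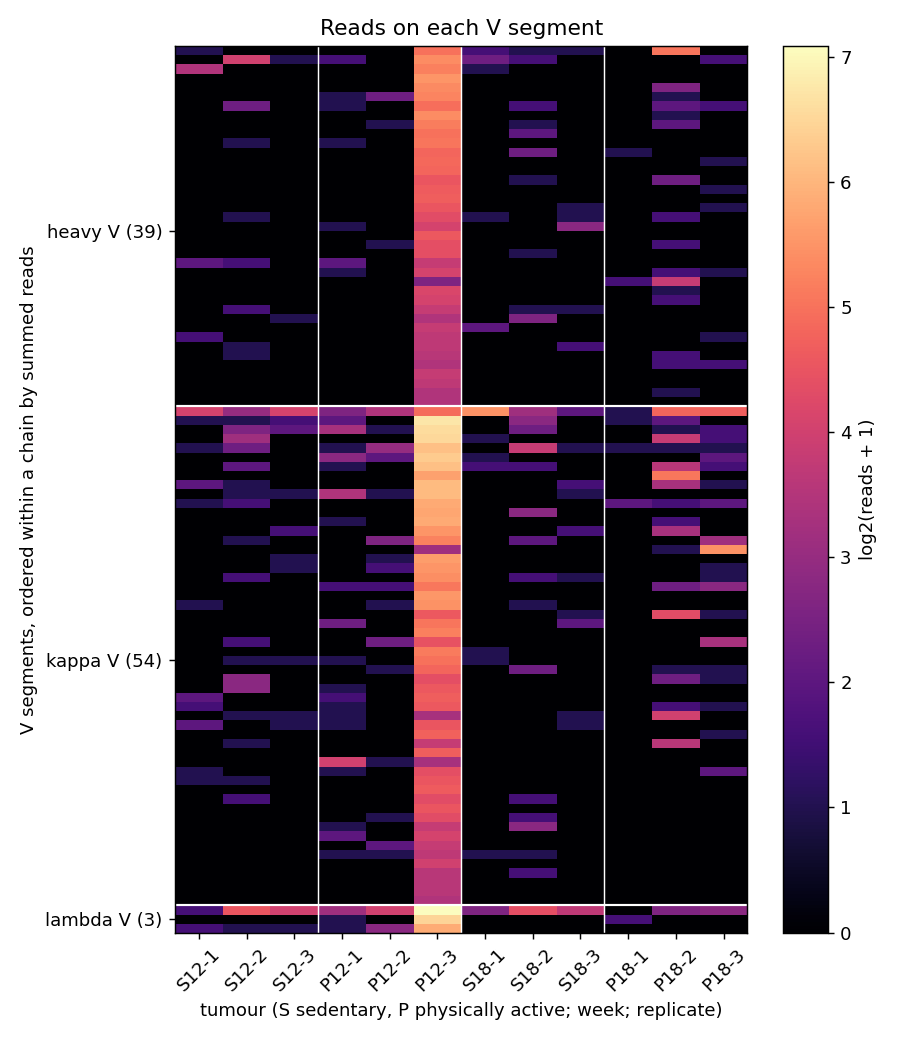
Heat map of reads on each of the 96 listed V segments (rows, by chain and then by summed reads) in the 12 tumours (columns), coloured by log2(reads + 1), with white lines between groups and chains. P12-3 has reads on all 96 segments, and the 11 other tumours have more than 3 reads on 0 to 16 of them.

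Dominance describes how far 1 segment led the V reads of its chain, with exact Clopper-Pearson 95% intervals for counting error. In P12-3 the first kappa segment, Igkv10-96, took 107 of 1875 reads (5.71%, interval 4.70 to 6.85) and the first heavy segment, Ighv3-5, took 45 of 866 (5.20%). In S18-1 Igkv14-111 took 43 of 50 kappa reads (86.0%, interval 73.3 to 94.2). In P18-3 Igkv8-16 took 43 of 115 (37.4%, interval 28.5 to 46.9), and in P18-2 Igkv17-127 took 33 of 168 (19.6%, interval 13.9 to 26.5). These tumours were led by single segments to a degree P12-3 was not.

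Igkv14-111 was the most widely shared leader. It led the kappa reads of S12-1 with 16 of 33, of S12-3 with 16 of 29, of P12-2 with 10 of 44 and of S18-1, and it tied with Igkv17-121 in S18-3 at 3 of 16. Its read counts over the tumours were 16, 7 and 16 in sedentary and 5, 10 and 29 in active week 12 tumours, and 43, 8 and 3 in sedentary and 1, 27 and 25 in active week 18 tumours. The groups overlapped throughout. Its reads came to 717% of those of Igkc in S18-1, which had 6 Igkc reads. They came to 100% in S12-3, 47.6% in P12-2, 34.0% in S12-1 and 1.27% in P12-3, with 7.69% the lowest of the 11 other tumours. Its count and that of the kappa constant gene were thus not in proportion across the tumours.

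Other leading kappa segments had reads in few tumours. Igkv8-16 had 43 reads in P18-3, 8 in P12-3, 1 in P18-2 and 0 in the 9 others. Igkv17-127 had 51 reads in P12-3 and 33 in P18-2 and 0 in the 10 others. Igkv4-68 led P12-1 with 15 of 70 kappa reads (21.4%) and otherwise had 1 read in P12-2 and 9 in P12-3. The first kappa segments of the tumours not yet named were Igkv6-32 in S12-2 with 8 of 55 reads, Igkv1-110 in S18-2 with 13 of 62 and Igkv12-44 in P18-1 with 3 of 6. At such depths the order of segments is uncertain.

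Heavy V reads were fewer. Ighv1-64 led P18-2 with 32 of 76 reads (42.1%, interval 30.9 to 54), followed by Ighv5-16 with 13. Ighv1-26 led S12-2 with 15 of 27 (55.6%), and Ighv5-4 led S12-1 with 10 of 16. The remaining tumours were led by Ighv14-2 in P12-1, Ighv1-72 in P12-2, Ighv1-22 in S18-2, Ighv10-1 in S18-3, Ighv5-16 in P18-1 and Ighv1-26 in S18-1, each on 2 to 6 reads, while S12-3 and P18-3 had ties on 1 or 2 reads. No heavy segment led more than a few tumours, and most led on counts too small to rank.

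Of the lambda V segments Iglv1 had the most reads in sum. It had 2, 22 and 15 reads in sedentary and 8, 15 and 135 in active week 12 tumours. At week 18 it had 5, 20 and 12 in sedentary and 0, 5 and 6 in active tumours. In P12-3 Iglv1 held 48.2% of lambda V reads. Iglv2 had 57 reads there and 11 over the 11 others. Iglv3 had 88 reads in P12-3, 1 in P12-1, 2 in P18-1 and 0 in the 9 others. Igkv1-117, with 94 reads in P12-3 and at most 9 elsewhere, and Ighv3-6, with 40 there and at most 5 elsewhere, were among the segments with the largest summed level. The pattern of P12-3 over the rest was common to all 3 chains.

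**Figure D5:**
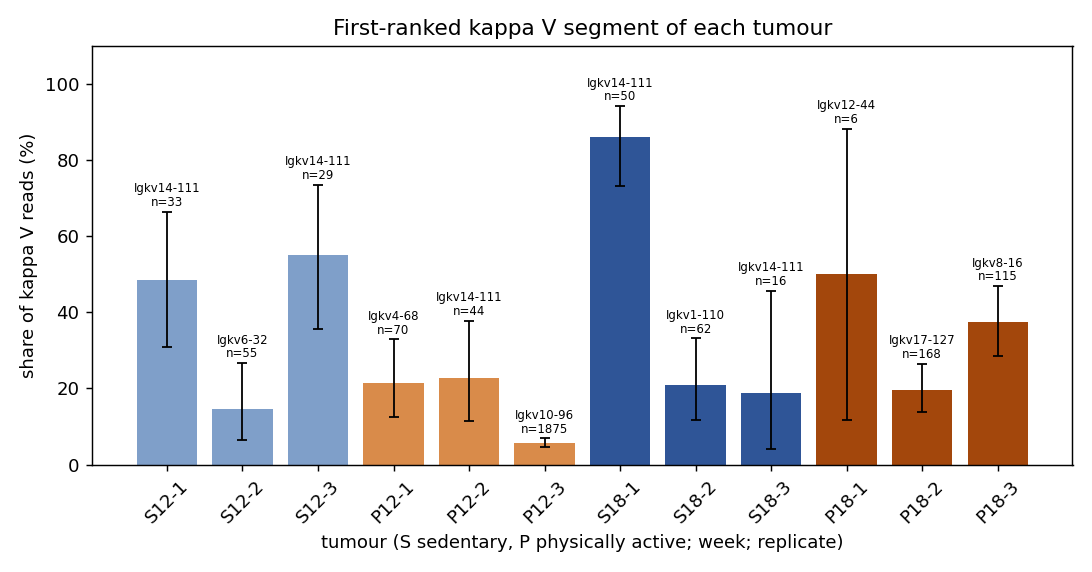
Share of kappa V reads taken by the first-ranked segment in each of the 12 tumours, in percent, as bars with exact 95% intervals, each labelled with the segment and with n, the kappa V reads of that tumour. S18-1 is at 86.0% of 50 reads and P12-3 is at 5.71% of 1875 reads.

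Active and sedentary tumours were compared in the limma fit across all genes. At week 12 no immunoglobulin gene of 107 tested passed an adjusted p of 0.05, against 99 of 19162 genes (0.517%), and 6 passed an unadjusted 0.05, all higher in active tumours, against 4.09% of all genes. edgeR on recovered reads also called 0, against 0.397% of all genes, and had 11 unadjusted, against 4.4%. DESeq2 called 1, Igkv8-30, against 1.08% of all genes. Members were higher in active tumours in 105 of 107, with a median difference of 1.58 against 0.012 over all genes tested, which follows in part from the listing through P12-3. Without that tumour 39 members were tested, 19 were higher and the median was -0.22.

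The members with the smallest p at week 12 were low in reads. Ighg1, an IgG heavy chain gene, differed by 2.90 (SE 0.67, adjusted p = 0.479). Igkv4-68, at 0 reads in all 3 sedentary and 15, 1 and 9 in the active tumours, differed by 2.79 (SE 0.77, adjusted p = 0.776), a value that depends on the pseudocount. Without P12-2, in a fit that called 67 of 19160 genes, it was 3.67 with an adjusted limma p of 0.0223, within a range of 0.0223 to 1.00 over all alternatives. Without P12-3, Igkv5-43 passed in limma at 1.56 (adjusted p = 0.0466, range 0.0466 to 1.00), and so did Ighg2c at 1.76 (adjusted p = 0.0484, range 0.0484 to 1.00). That fit called 66 of 18954 genes. Both members rested on 2 or 3 reads in each remaining active tumour, with the sedentary tumours at 0, and Igkv5-43 is 100% identical to another segment over the stretch compared. The Igkv8-30 call of DESeq2 had an adjusted p of 0.0478 (range 0.0478 to 1.00), on read counts of 0, 0 and 0 in sedentary and 6, 3 and 80 in active tumours. Igkv14-111 and Ighg2b had the smallest p of the members that were lower, at -0.12 and -0.13 in limma, while edgeR and DESeq2 put both higher in active tumours.

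Of the 107 members, 7 had all active week 12 values above all sedentary values, against 4.36% of all genes tested, and 0 had them below, against 4.78%. These 7 were Igkv5-43, Ighg1, Ighg2c, Igkv4-91, Igkv4-68, Igkv8-30 and Ighv1-72. Most members are in the tables through P12-3, an active week 12 tumour, so for those 83 an order with all active values below could not occur and one with all above was made easier. These counts are therefore a description, and nothing is read from them. The authors' deposited table gave an adjusted p below 0.05 to 204 genes at week 12 and 41 at week 18, and to 0 members at either week. For some members at each week, among them Ighm, Ighd and Igkc at week 12, the deposited adjusted p can stand for a missing value. That count of 0 is therefore not a test of every member. The smallest deposited adjusted p among members at week 12 was 0.166, for Igkv8-30.

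At week 18 the limma fit called 0 of 44 members tested (0% of 18939 genes), and 3 had an unadjusted p below 0.05, against 5.97% of all genes. edgeR and DESeq2 also called 0, with 3 unadjusted in edgeR, against 5.89% of all genes, and 0.261% of all genes called by DESeq2. Members were higher in 27 of 44, with a median of 0.41 against 0.0091 over all genes. That direction rested on P18-2: without it 12 of 35 members tested were higher, with a median of -0.32. Without S18-1 the median was 0.0014, and among the 7 members with a mean of at least 10 it was -0.13. Igkv12-44 differed by 1.79 (SE 0.20, adjusted p = 0.513) on at most 3 reads in any week 18 tumour, and Ighg2c by 2.04 (SE 0.78, adjusted p = 0.824). Iglc2 differed by -1.42 (SE 0.38, adjusted p = 0.815) with every active tumour at 0 reads, and Iglv1 by -1.85 (SE 0.87, adjusted p = 0.824). All active values exceeded all sedentary values for 2 members, against 6.03% of all genes, and were below them for 1, against 7.57%. Of the 2, Ighg2c had 1 read in each of P18-1, S18-1 and S18-2, so its order came from the scaling.

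The difference between the activity effects of the weeks was also tested with limma over all 12 tumours. No member passed (0.0104% of 19241 genes called), and 4 had an unadjusted p below 0.05, all negative, against 6.33%. Members were positive in 9 of 107, with a median of -1.44 against -0.02 over all genes. That direction follows in part from the listing of 83 members through P12-3, an active week 12 tumour. Without P12-3, 34 of 59 members tested were positive, with a median of 0.25. edgeR and DESeq2 called 0 members, with 7 unadjusted in edgeR, against 8.34% of all genes, and 0.904% of all genes called by DESeq2. Igkv4-68 had the smallest p, at -2.79 (SE 0.83, adjusted p = 0.545). Without P12-2, in a fit that called 3 of 19240 genes, it was -3.67 with an adjusted limma p of 0.00082, in a range of 0.00082 to 1.00 over its alternatives, on the same low reads as above. Igkv4-91, at 13.4 normalized counts in P12-3 and at most 1.03 elsewhere, was at -2.59 (SE 0.94, adjusted p = 0.704). The members with positive values and smallest p, Ighv5-16 and Igkv8-16, were at 0.84 and 0.96.

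Week 18 was then set against week 12. In sedentary tumours limma called 0 of 38 members tested (0% of all genes), and 4 had an unadjusted p below 0.05, all lower, against 4.98%. edgeR and DESeq2 called 0 members, with 3 unadjusted in edgeR, against 4.28% of all genes, and 0.893% of all genes called by DESeq2. The Ighd difference was -2.70 (SE 0.61, adjusted p = 0.576), from a mean of 29.9 ± 4.77 (SD, n = 3) to 4.85 ± 4.35 (SD, n = 3). Of the 12 B cell markers 1 was higher at week 18 in these tumours, with a median of -1.09 against -0.02 over all genes, and their part in the Ighd value was not tested. Iglc3 had -1.57 (SE 0.23, adjusted p = 0.392) and Iglv2 had -1.25 (SE 0.25, adjusted p = 0.498), with both genes at 3 reads or fewer in these tumours. The 4 members whose week 18 values were all below the week 12 values, against 6.02% of all genes, were Iglc3, Iglv2, Ighd and Ighg2b. For 0 members they were above, against 4.39%. Ighg2b had 4 reads in both S12-1 and S18-2, so its order came from the scaling. The members with positive differences and smallest p, Ighv1-64 and Igkv6-15, were at 0.80 and 0.94.

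In active tumours 0 of 107 members passed in limma (0% of all genes), with 4 unadjusted, all lower, against 12.1%. edgeR also called 0, with 12 unadjusted, against 15.1% of all genes. DESeq2 called Igkv1-135 and Iglv2, against 4.64% of all genes, with adjusted p of 0.0306 (range 0.0306 to 0.637) and 0.0445 (range 0.0445 to 0.637). Igkv1-135 had 73.6 normalized counts in P12-3 and at most 9.11 in any other tumour, and Iglv2 had 63.6 and at most 6.18. Igkv4-68 and Ighg1 had the smallest limma p, at -2.79 (SE 0.77, adjusted p = 0.412) and -2.29 (SE 0.77, adjusted p = 0.412), and Ighd was at -5.01 (SE 2.19, adjusted p = 0.422). Without P12-3 the Ighd difference was -2.46. With P12-3 included, none of the 12 B cell markers was higher at week 18, with a median of -3.50 against -0.03 over all genes. Their summed normalized counts were 288, 124 and 32291 at week 12 and 265, 124 and 136 at week 18. Apart from P12-3 the weeks thus overlapped. Adipocyte markers had a median of -4.97, T cell markers -2.43 and skeletal muscle markers 3.67. The part of these markers in the Ighd value was not tested. Week 18 was below week 12 in every tumour for 10 members, against 12.7% of all genes, and above for 0, against 12.1%. For the 83 members listed through P12-3 an order with week 18 above could not occur, so nothing is read from these counts. Members were higher at week 18 in 4 of 107, with a median of -1.49 against -0.03 over all genes, and without P12-3 in 24 of 44, with a median of 0.23.

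Over all 12 tumours with activity as a term, a comparison added after seeing the data, limma called 0 members (0% of all genes) and 5 had an unadjusted p below 0.05, all lower, against 12.4%. edgeR called 0, with 24 unadjusted, against 14.5% of all genes, and DESeq2 called 1, Iglv2, against 1.82%. Ighd was at -3.85 (SE 1.21, adjusted p = 0.375), and between -4.33 and -2.59 with any 1 tumour left out. Ighd and Iglv2 were the 2 members below in all 6 week 18 tumours, against 0.577% of all genes, and 0 were above, against 0.343%. Iglv2 had 63.6 normalized counts in P12-3 and at most 6.18 elsewhere. For the 83 members listed through P12-3, Iglv2 among them, an order with week 18 above could not occur, so nothing is read from these counts. Members were higher at week 18 in 6 of 107, with a median of -0.68, which follows in part from that listing. Without P12-3, 31 of 59 were higher, with a median of 0.03. Of the 12 B cell markers 0 were higher at week 18, with a median of -2.25 against -0.04 over all genes, P12-3 included. Adipocyte markers were at -3.43, T cell markers at -1.43, skeletal muscle markers at -0.52 and epithelial markers at 0.30. The part of these markers in the Ighd values was not tested. Ighm, Igha and Igkc overlapped between the weeks.

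Markers of other cells moved with P12-3. All 12 B cell markers were highest there, with a summed normalized count of 32291 against 98.1 to 312 in the 11 others. All 11 T cell markers were highest there too, at 17757 against 907 to 2321, as were 7 of 9 lymph node stroma markers, at 14884 against 443 to 1306, and 6 of 6 adipocyte markers, at 146836 against 373 to 30344. Of the lymph node stroma sum, Glycam1 alone held 7884 in P12-3, against 0 to 44.3 in the others. The 6 epithelial markers summed to 54791 in P12-3, below the 68149 to 134433 of the others. Plasma cell markers summed to 20602 in P12-3 against 15436 to 46408, a sum carried by Xbp1 (10455 in P12-3, 8936 to 36033 in the others), Txndc5 and Sdc1. Of the 11 plasma cell markers 5 were highest in P12-3, Jchain, Mzb1, Irf4, Pou2af1 and Slamf7, named after their values were seen. Macrophage markers were at 16901 against 8160 to 17610. Their part in the immunoglobulin values was not tested.

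Levels of single defining markers are given as normalized counts. In P12-3 the B cell gene Ms4a1 was at 2499, the follicular B cell receptor gene Cr2 at 2273, the B cell attracting chemokine Cxcl13 at 738, the lymph node chemokine Ccl21a at 4705 and the T cell gene Cd3e at 986. In the 11 others the highest values were 20.0, 17.9, 76.9, 332 and 44.3 in the same order. Jchain, which joins IgM and IgA units, was at 319 in P12-3 and at 3.12 to 114 in the others, Mzb1 at 204 against 0 to 11.6, and Sdc1, also made by epithelium, at 1735 against 2125 to 4839. P12-3 stood further above the others for Ms4a1 than for Jchain.

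Genes that handle immunoglobulins were taken from lists of recombination, class switching, germinal centre, receptor signalling, secretion, receptor and survival genes. No gene of these pathway lists passed the limma threshold in any comparison. At week 12 the receptor signalling list had 8 of 10 genes higher in active tumours, with a median of 0.90 against 0.012 over all genes, and without P12-3 that median was -0.12. The secretion list had 3 of 10 higher, with a median of -0.20. At week 18 these medians were -0.06 and 0.17. Of the marker lists only the 6 skeletal muscle genes passed, all lower in active week 12 tumours, by -6.86 for Mylpf (adjusted p = 0.0169) to -7.58 for Myh4 (adjusted p = 0.0190). The muscle sum was 47107 to 103692 in sedentary week 12 tumours and 378 in P12-3, and its part in the immunoglobulin values was not tested.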

How the data were processed

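Tumour RNA was extracted with TRIzol and made into libraries with a stranded mRNA kit, per the labels' protocols. The aligner, the counter and the annotation are not given in the sources used here. The submitters' processing notes name mm10, which is GRCm38, so member coordinates were taken from GENCODE (GRCm38), where all 107 matched. The authors deposited 1 table per week holding a normalized signal per gene, each a read count divided by 1 factor per tumour. Dividing each value by what 1 read was worth returned whole reads in 100% of cases (tolerance 0.01 of a read), although in S18-3 that worth, 0.991, is too near 1 for this to be a check. The factors equal median-of-ratios factors over all 12 tumours, so the tables share 1 scale. The authors' deposited columns also hold, per gene, a log2 fold change, its linear ratio, p-values with their −log10 form, and a test statistic as a score; only the adjusted p-values were used, where named. No column of another sample was used, and the hematopoietic stem cell libraries of the series were not used here.

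Tests were made with limma 3.58.1 in R 4.3.3 on log2(value + 1), for genes averaging 1 or more normalized counts in a compared group, with Benjamini-Hochberg adjustment over all genes tested and a threshold of 0.05. Such differences understate the change of low genes. Alternatives were edgeR 4.0.16 and DESeq2 1.42.0 on recovered reads, TMM scaling, pseudocounts of 0.5 and 5, no filter, a mean of at least 10, the replicate number as a block, and each tumour left out in turn. The scripts were tested on simulated data. Summed levels, breadth, dominance and shares are values with no test. The labels state no pairing of tumours by replicate number. Same-number deviations correlated at 0.164, 0.159 and 0.139 at week 18, and at -0.033, -0.095 and 0.092 at week 12. With so few tumours per group, correlations of this size cannot show whether the numbers pair the tumours.

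Named were all constant genes, the 5 heavy, 5 kappa and 2 lambda V segments with the largest summed level, the first heavy and kappa segment of each tumour, the members with the smallest p (up to 5 past the threshold, otherwise 2 per direction and comparison) and the defining markers, of which 1 is not reported here. The members and lists were chosen with earlier results of these data known. The members had no entry in the promoter table used here, so no promoter motif is given.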

Additional observations from a re-analysis of the deposited data

How the results depend on the processing

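The count of immunoglobulin genes past an adjusted p of 0.05 was 0 in all 6 comparisons. It stayed 0 with pseudocounts of 0.5 and 5, no filter, a mean of at least 10, TMM scaling, edgeR and the replicate block. DESeq2 gave 1 at week 12, 2 between weeks in active tumours and 1 between weeks in all tumours. With each tumour left out in turn the count ran from 0 to 2 at week 12 and from 0 to 1 for the difference of the activity effects; over all genes the fits with those calls gave 66 of 18954 (without P12-3), 67 of 19160 (week 12 without P12-2) and 3 of 19240 (the difference without P12-2). The log2 ratio of summed levels at week 12 ran from -0.41 to 3.93. Direction turned under count tests for Igkv14-111 at week 12 (0.16 in DESeq2 and 0.16 in edgeR), Ighg2b at week 12 (0.47 with a pseudocount of 5, 2.62 in DESeq2 and 2.61 in edgeR), Igha at week 12 (-0.69 and -0.67) and Ighm at week 18 (0.11 and 0.11). The cause was not tested. Leaving out 1 tumour gave, at week 12, -0.81 to 0.48 for Igkv14-111, -2.39 to 1.5 for Ighg2b, -0.50 to 2.21 for Ighm, -0.31 to 3.60 for Ighd, -0.52 to 2.89 for Igkc and -0.42 to 1.46 for Igha. At week 18 it gave -0.93 to 0.73 for Ighm, -0.69 to 0.51 for Ighd and -0.15 to 1.93 for Igkc. For both the difference of the activity effects and the week comparison in active tumours it gave -0.094 to 1.75 for Ighv5-16 and -0.65 to 2.07 for Igkv8-16. Most tumours other than P12-3 held too few V reads to rank V segments, and segments under 10 reads in every tumour are not in the tables.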
